A study of Mus musculus with 7 samples.

Results

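Genes of glycolysis and of the response to low oxygen were followed across mouse kidney rudiment tissues and a collecting duct cell line. The set was chosen by name, with earlier results of these data known. It comprised 36 genes for glucose transporters and glycolytic enzymes, pyruvate and lactate handling, the hypoxia-inducible factors (HIF) with their oxygen sensors, and genes known to respond to hypoxia. A member was measured by every probe set annotated to that gene alone, which gave 34 genes and 75 probe sets out of 18193 genes and 34945 probe sets. Gpi1 and Eno1 were not analysed here. The 7 Affymetrix mouse genome arrays covered parts of the mouse kidney rudiment dissected at E12.5 and 1 cell line. These parts were the metanephric mesenchyme and the ureteric bud, the latter divided into stalk and tip, with 2 biological replicates of each. The line mIMCD-3 comes from the mouse inner medullary collecting duct, and its array held a new subclone of the line, cultured in DMEM until confluent. Strain, genotype, sex and any treatment are not given in the sources used here. The line was hybridised once and was added to tissue arrays published before, so the line and its hybridisation cannot be told apart.

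Glycolysis splits glucose into pyruvate, and lactate dehydrogenase turns pyruvate into lactate when less of it enters the mitochondria. Under low oxygen the HIF alpha subunits escape hydroxylation by the Egln enzymes, pair with Arnt and bind the core sequence of hypoxia response elements, among which are elements of glycolytic genes, Vegfa and Car9. HIF alpha activity is set mainly at the protein level, so a transcript level of Hif1a or Epas1 does not measure it. In the embryonic kidney the ureteric bud branches at its tips within mesenchyme that is being invaded by blood vessels.

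Values below are log2 of the authors' robust multichip analysis (RMA) intensities, and a difference of 1 is a doubling. Where several probe sets measured a gene, the brightest on average stood for it. Levels of different genes are not comparable on these arrays. Array medians ran from 5.51 to 5.62 for tissue, and the mIMCD-3 median was 5.40. Replicates differed least for stalk (SD of their difference over probe sets 0.19), more for mesenchyme (0.26) and most for tip (0.35). The epithelial E-cadherin gene Cdh1 was at 10.45 or above on every bud array and in mIMCD-3 and at 4.0 or below in mesenchyme, and the nephron progenitor gene Six2 was at 9.84 or above in mesenchyme and at 7.63 or below elsewhere. The collecting duct water channel gene Aqp2 was at 5.15 in mIMCD-3, inside the tissue range of 4.88 to 5.49. Of 9 collecting duct markers, Krt8 and Krt18, which the bud also expresses, were higher in mIMCD-3 by the size rule given with its results, and 1 was lower. Krt8 was at 12.31 and Krt18 at 12.01, above every tissue array. The summed intensity of the 9 was 10208 in mIMCD-3, from 8093 to 9744 in the bud and 470 and 504 in mesenchyme. Such a sum is weighted to the brightest genes, which in mIMCD-3 were Krt8, Krt18 and Cdh16 (9.42). There Aqp3, Scnn1b and Scnn1g were at 5.13, 5.03 and 5.12, below the array median, and Avpr2 and Scnn1a at 6.38 and 6.22.

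More than the background share of glycolysis and hypoxia response genes was called higher in the bud tip. Against mesenchyme, 18 of the 34 measured members were higher in tip and 2 were lower (limma, adjusted p under 0.05 over all genes), where 7.38% of all genes were higher and 8.37% lower (15.7% either way). Against stalk, 12 were higher in tip and 3 lower, where the shares over all genes were 2.86% and 6.97% (9.83% either way). With each array centred on its median, 8 were higher and 4 lower in that comparison, where 2.87% of all genes were higher and 7.65% lower. In stalk against mesenchyme 7 were higher (4.30% of all genes) and 0 lower (1.24% of all genes, 5.54% either way). There an unadjusted p under 0.05 was reached by 12 members in the higher and 1 in the lower direction. The share of all genes at that unadjusted p is not given here. The median difference of the members was 0.48 for tip against mesenchyme, 0.29 for tip against stalk and 0.16 for stalk against mesenchyme, where all genes had medians of 0.01, 0.07 and -0.04. The 3 comparisons share arrays, so they are not independent of each other.

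The commonest order of the tissues ran from mesenchyme over stalk to tip. For 13 of the 34, every tip array lay above every stalk array and every stalk array above every mesenchyme array, an order that 7.07% of all genes showed. These were Slc2a1, Slc2a3, Hk1, Pfkl, Aldoa, Aldoc, Tpi1, Ldhb, Pdk1, Slc16a1, Egln3, Bnip3 and Car12. Of them, Slc2a3, Hk1, Aldoc, Slc16a1 and Car12 were called in stalk against mesenchyme, and the others were not. For Aldoa, replicate 2 of stalk and replicate 1 of mesenchyme were both at 11.81 (stalk against mesenchyme adjusted p = 0.930, limma). The reverse order without overlap was seen for Epas1 and Pfkm (5.78% of all genes). For Hk2, Ldha, Pgam1 and Pgk1 the tip was highest and the stalk lowest (2.39% of all genes). For Hif1a, Ndrg1, P4ha2, Pfkp and Vegfa the stalk was highest and the tip lowest (3.92% of all genes). Ddit4 alone had the stalk highest and the mesenchyme lowest without overlap (1.08% of all genes). The other 9 members had at least 1 pair of tissues whose arrays overlapped, as had 78.9% of all genes. For pairs of tissues, 23 members lay wholly above mesenchyme in tip and 7 wholly below (22.4% and 22.6% of all genes). In tip against stalk 21 lay above and 8 below (28.2% and 22.6%), and in stalk against mesenchyme 21 above and 9 below (22.3% and 25.6%). For Hk2, Pfkp, Pgk1, Ldha and P4ha2, stalk and tip lay on opposite sides of mesenchyme and differed from each other past the threshold, as in 2.78% of all genes.

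Some calls rested on how probe sets, arrays or scale were handled. With every gene's probe sets averaged, the stalk calls of Aldoc, Slc16a1 and Car12 were lost (adjusted p = 0.383, 0.291 and 0.356), as were the calls of Pgk1 and Pdk1 in tip against stalk (0.0617 and 0.130). With arrays centred on their medians, Hk2, Tpi1, Pgk1 and Pdk1 lost their calls in tip against stalk (adjusted p = 0.0919, 0.120, 0.0919 and 0.0633).

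**Figure D1:**
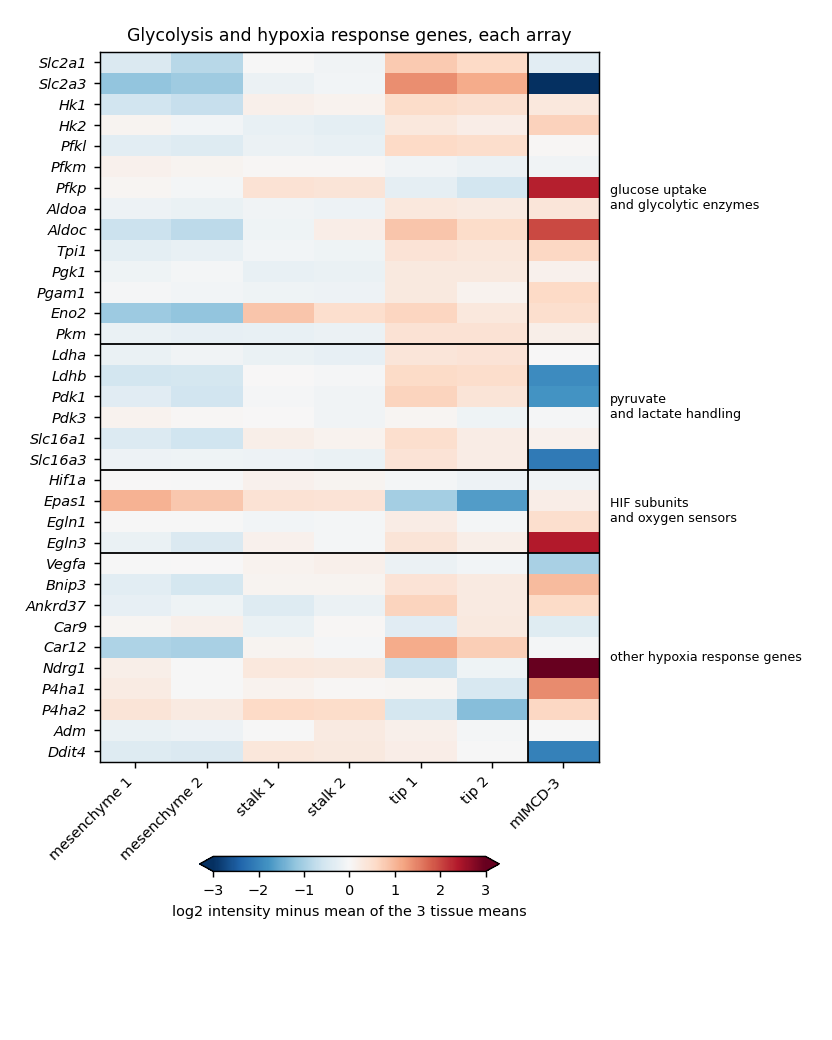
Log2 intensity of the 34 measured members (rows, grouped by role) on each of the 7 arrays (columns), as the difference from the mean of the 3 tissue means; colours saturate at 3. Most rows of the first 2 groups turn from blue in mesenchyme to red in tip, while Epas1 and P4ha2 turn from red to blue, and 10 members stand far from the tissues in mIMCD-3.

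Both glucose transporter genes followed this order. Slc2a3, which encodes the high-affinity transporter GLUT3, was at 6.76 and 6.87 in mesenchyme, 7.77 and 7.85 in stalk and 9.33 and 9.05 in tip. No tissues overlapped, and the tip exceeded mesenchyme by 2.37 ± 0.14 (SE), or 5.18-fold (adjusted p = 2.49e-05, limma), the largest difference in tip against mesenchyme among the members that were higher. It exceeded stalk by 1.38 ± 0.14 (adjusted p = 0.000819), and stalk exceeded mesenchyme by 0.99 ± 0.14 (adjusted p = 0.00609). The tip calls of Slc2a3 held in each of the 6 fits that left out 1 tissue array, whereas its stalk call did not hold without stalk replicate 2 (adjusted p = 0.0579) or without probe sets that may bind related transcripts (adjusted p = 0.178). Slc2a1 encodes GLUT1, the widely expressed basal glucose transporter. It was at 10.64 and 10.23 in mesenchyme, 11.04 and 10.94 in stalk and 11.84 and 11.66 in tip, again without overlap. The tip exceeded mesenchyme by 1.32 ± 0.17, or 2.49-fold (adjusted p = 0.00117), and stalk by 0.76 ± 0.17 (adjusted p = 0.0276). The first call held in each of those 6 fits, and the second was lost without stalk replicate 1 (adjusted p = 0.116), stalk replicate 2 (0.174), tip replicate 1 (0.0722) or tip replicate 2 (0.0504). Stalk and mesenchyme differed by 0.56 ± 0.17 in Slc2a1, which passed with the replicate number as a block (adjusted p = 0.0165) and not without it (adjusted p = 0.141).

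Hexokinases phosphorylate glucose on entry, and the 2 members of this step differed. Hk1 was at 8.21 and 8.08 in mesenchyme, 8.93 and 8.89 in stalk and 9.32 and 9.25 in tip. It was 1.15 ± 0.12 higher in tip than in mesenchyme (adjusted p = 0.000515), a call that held in all 6 fits without 1 array. In stalk it was 0.77 ± 0.12 higher than in mesenchyme (adjusted p = 0.0112), which was lost without mesenchyme replicate 2 (adjusted p = 0.0972), stalk replicate 1 (0.142) or stalk replicate 2 (0.102). Tip and stalk differed by 0.38 ± 0.12 in Hk1 (adjusted p = 0.118, and 0.0335 with the replicate block). Hk2, the isoform known to be inducible by hypoxia and insulin, was at 9.45 and 9.29 in mesenchyme, 9.15 and 9.08 in stalk and 9.70 and 9.58 in tip. Both stalk arrays lay below mesenchyme and the tip arrays above it. Hk2 was 0.53 ± 0.13 higher in tip than in stalk (adjusted p = 0.0447), a call lost without any 1 of the 6 arrays (adjusted p from 0.0537 to 0.320), and neither tissue was called against mesenchyme.

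Phosphofructokinase catalyses the committed step of glycolysis and has 3 subunit genes, which went different ways. Pfkl, the liver-type subunit, was at 10.28 and 10.21 in mesenchyme, 10.42 and 10.38 in stalk and 11.21 and 11.14 in tip. It was 0.93 ± 0.12 higher in tip than in mesenchyme (adjusted p = 0.00134, held in all 6 fits without 1 array) and 0.78 ± 0.12 higher than in stalk (adjusted p = 0.00589). The second call was lost without stalk replicate 1 (adjusted p = 0.0645) or stalk replicate 2 (0.0769). Pfkp, the platelet-type subunit, was at 6.55 and 6.44 in mesenchyme, 6.91 and 6.86 in stalk and 6.21 and 5.95 in tip. It fell by 0.81 from stalk to tip (SE 0.14, adjusted p = 0.00999), also lost without stalk replicate 1 (adjusted p = 0.0948) or stalk replicate 2 (0.0680). Its tip difference from mesenchyme of -0.41 ± 0.14 was not called (adjusted p = 0.101), but was with the replicate block (adjusted p = 0.0240) and without tip replicate 1 (-0.55, adjusted p = 0.0356). Pfkm, the muscle-type subunit, spanned only 8.89 to 9.20 over the tissue arrays and was not called in any of the 3 comparisons.

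Of the lower steps, Aldoc, Aldoa, Tpi1, Pkm and Eno2 were higher in tip than in mesenchyme. Aldolase splits fructose bisphosphate. Its isoform gene Aldoc was at 6.24 and 6.11 in mesenchyme, 6.76 and 7.10 in stalk and 7.72 and 7.45 in tip. Aldoc was 1.41 ± 0.17 higher in tip than in mesenchyme (adjusted p = 0.000808, held in all 6 fits without 1 array). It was 0.76 ± 0.17 higher in stalk (adjusted p = 0.0421), a call lost without either mesenchyme or either stalk array (adjusted p from 0.0706 to 0.362). Tip and stalk differed by 0.65 ± 0.17 in Aldoc (adjusted p = 0.0517, and 0.0182 with the block). Aldoa, the ubiquitous isoform, was at 11.81 and 11.75 in mesenchyme, 11.86 and 11.81 in stalk and 12.26 and 12.23 in tip. Both tip arrays stood apart from all others, with a difference of 0.47 ± 0.12 from mesenchyme (adjusted p = 0.0364). That call was lost without any 1 of the 6 arrays (adjusted p from 0.0521 to 0.203) and after centring the arrays (adjusted p = 0.0941). All 5 Aldoa probe sets carry the suffix _x_at, given to probe sets that may bind other transcripts, and Aldoa, Tpi1, Pgk1 and Ldha belong to families with processed pseudogenes, so signal from copies cannot be told apart.

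Tpi1, the triose phosphate isomerase gene, was at 11.87 and 11.94 in mesenchyme, 12.08 and 12.05 in stalk and 12.57 and 12.51 in tip. It was 0.64 ± 0.12 higher in tip than in mesenchyme (adjusted p = 0.00911, and 0.0749 without mesenchyme replicate 1). It was 0.48 ± 0.12 higher in tip than in stalk (adjusted p = 0.0498), which was lost without any 1 array (adjusted p from 0.0648 to 0.350). Pgk1, whose enzyme makes the first ATP of the pathway, was at 12.63 and 12.70 in mesenchyme, 12.54 and 12.57 in stalk and 13.06 and 13.06 in tip. Both tip arrays stood above the rest. The difference from stalk was 0.50 ± 0.12 (adjusted p = 0.0391). It was kept without tip replicate 1 and lost without either mesenchyme array (adjusted p = 0.0765 for both), stalk replicate 1 (0.358), stalk replicate 2 (0.273) or tip replicate 2 (0.0656). The difference of Pgk1 from mesenchyme, 0.39 ± 0.12, was called with the replicate block (adjusted p = 0.0236) and not without it (adjusted p = 0.0708). Pkm, the pyruvate kinase gene of most tissues, was at 11.82 and 11.77 in mesenchyme, 11.79 and 11.84 in stalk and 12.44 and 12.46 in tip. Mesenchyme and stalk overlapped and the tip stood apart, 0.65 ± 0.12 above mesenchyme (adjusted p = 0.00776) and 0.63 ± 0.12 above stalk (adjusted p = 0.0141). Without mesenchyme replicate 2 the first gave an adjusted p of 0.0607, and the second gave 0.184 without stalk replicate 1 and 0.126 without stalk replicate 2. Pkm was measured by 1 probe set, and its splice forms were not analysed here. Pgam1, the phosphoglycerate mutase gene, ranged from 11.38 to 11.81 and was not called.

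Eno2, an enolase gene best known from neurons, had another pattern. It was at 5.11 and 5.02 in mesenchyme, 7.02 and 6.69 in stalk and 6.83 and 6.52 in tip. Stalk and tip overlapped, and both stood well above mesenchyme. Stalk exceeded mesenchyme by 1.79 ± 0.17 (adjusted p = 0.000733), and tip exceeded it by 1.61 ± 0.17 (adjusted p = 0.000417). Both calls held in each fit that left out 1 array. The mesenchyme values lay below the median of all probe sets, where RMA compresses differences.

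**Figure D2:**
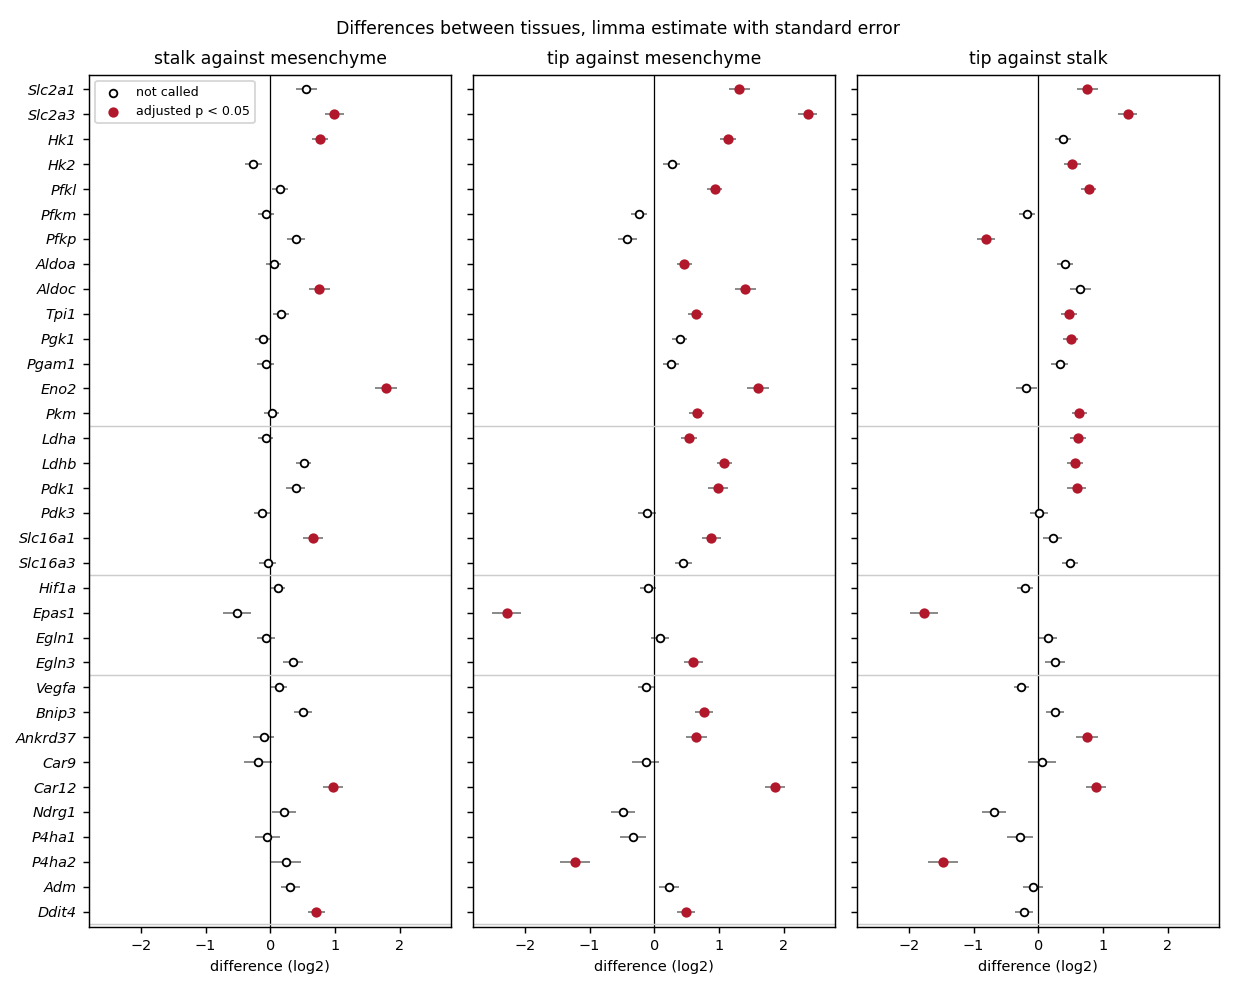
Difference in log2 intensity with its standard error (limma fit of the 6 tissue arrays) for each of the 34 members in the 3 comparisons; filled points have an adjusted p under 0.05 over all genes and grey lines separate the roles. The filled points lie mainly right of 0 in tip against mesenchyme (18 right, 2 left), and Epas1 and P4ha2 are the 2 on the left.

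Genes that handle pyruvate and lactate were also higher in tip, 4 of 6 against mesenchyme and 3 of 6 against stalk. Ldha and Ldhb encode the subunits of lactate dehydrogenase. Ldhb was at 10.17 and 10.19 in mesenchyme, 10.72 and 10.67 in stalk and 11.29 and 11.23 in tip, in even steps without overlap. Tip levels exceeded those of mesenchyme by 1.08 ± 0.12, or 2.12-fold (adjusted p = 0.000568, held in all 6 fits without 1 array). It exceeded stalk by 0.57 ± 0.12 (adjusted p = 0.0233), lost without stalk replicate 1 (adjusted p = 0.202) or stalk replicate 2 (0.239) and after centring the arrays (0.0516). Stalk exceeded mesenchyme by 0.52 ± 0.12 in Ldhb, which just missed the threshold (adjusted p = 0.0534) and passed with the block (0.0139) and without tip replicate 1 or tip replicate 2 (0.0360 for both). Ldha was at 12.12 and 12.20 in mesenchyme, 12.12 and 12.07 in stalk and 12.68 and 12.72 in tip. Mesenchyme and stalk lay close together and the tip above both, by 0.54 ± 0.12 over mesenchyme (adjusted p = 0.0202) and 0.61 ± 0.12 over stalk (adjusted p = 0.0177). The first was lost without mesenchyme replicate 1 (adjusted p = 0.143), mesenchyme replicate 2 (0.0821) or either stalk array (0.0727 for both), and the second without stalk replicate 1 (0.161) or stalk replicate 2 (0.194).

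Pdk1 encodes a kinase that restrains the entry of pyruvate into the citric acid cycle. It was at 8.55 and 8.33 in mesenchyme, 8.87 and 8.80 in stalk and 9.56 and 9.29 in tip. In tip Pdk1 exceeded mesenchyme by 0.98 ± 0.15, or 1.98-fold (adjusted p = 0.00299, held in all 6 fits without 1 array), and stalk by 0.59 ± 0.15 (adjusted p = 0.0479). The second call was kept without tip replicate 2 and lost without any 1 of the other 5 arrays (adjusted p from 0.0616 to 0.283). Its relative Pdk3 ranged from 8.88 to 9.12 and was not called. Slc16a1, the gene of the lactate and pyruvate carrier MCT1, was at 10.16 and 9.97 in mesenchyme, 10.76 and 10.70 in stalk and 11.09 and 10.81 in tip. Both bud parts stood above mesenchyme, the tip by 0.88 ± 0.15 (adjusted p = 0.00517, held in all 6 fits without 1 array) and the stalk by 0.66 ± 0.15 (adjusted p = 0.0466). The stalk call was lost without either mesenchyme or either stalk array (adjusted p from 0.105 to 0.349). Slc16a3, the gene of the lactate exporter MCT4, was at 6.33 and 6.36 in mesenchyme, 6.33 and 6.27 in stalk and 6.89 and 6.70 in tip. Tip values stood apart, but its differences of 0.45 ± 0.13 from mesenchyme and 0.49 ± 0.13 from stalk were not called (adjusted p = 0.0566 and 0.0577). Both were called with the replicate block (adjusted p = 0.0168 and 0.0147) and without tip replicate 2 (0.0334 and 0.0403).

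The HIF alpha subunit genes did not move together. Epas1 encodes HIF-2 alpha, a subunit known for its expression in endothelium and stroma. Epas1 was at 7.98 and 7.74 in mesenchyme, 7.36 and 7.33 in stalk and 5.91 and 5.24 in tip. The tissues did not overlap, and the tip lay lowest. It fell by 2.28 from mesenchyme to tip (SE 0.22, 4.87-fold, adjusted p = 0.000263) and by 1.77 from stalk to tip (SE 0.22, adjusted p = 0.00193), and both calls held in all 6 fits without 1 array. The stalk difference from mesenchyme of -0.52 ± 0.22 was not called (adjusted p = 0.371). Hif1a, which encodes the broadly expressed HIF-1 alpha, was at 11.17 and 11.14 in mesenchyme, 11.30 and 11.24 in stalk and 11.10 and 11.01 in tip. Its largest difference, tip minus stalk, was -0.21 ± 0.12 and was not called (adjusted p = 0.373). Over the 6 tissue arrays Hif1a spanned 11.01 to 11.30.

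The oxygen sensors Egln1 and Egln3 hydroxylate the HIF alpha subunits, and Egln3 is itself a known HIF target. Egln3 was at 6.25 and 6.01 in mesenchyme, 6.57 and 6.39 in stalk and 6.84 and 6.63 in tip. In tip Egln3 was 0.60 ± 0.15 above mesenchyme (adjusted p = 0.0327), a call kept without tip replicate 2 and lost without any 1 of the other 5 arrays (adjusted p from 0.0551 to 0.202). It was not called with the mean of its probe sets (adjusted p = 0.0832). Egln1 ranged from 9.01 to 9.32 and was not called in any comparison.

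**Figure D3:**
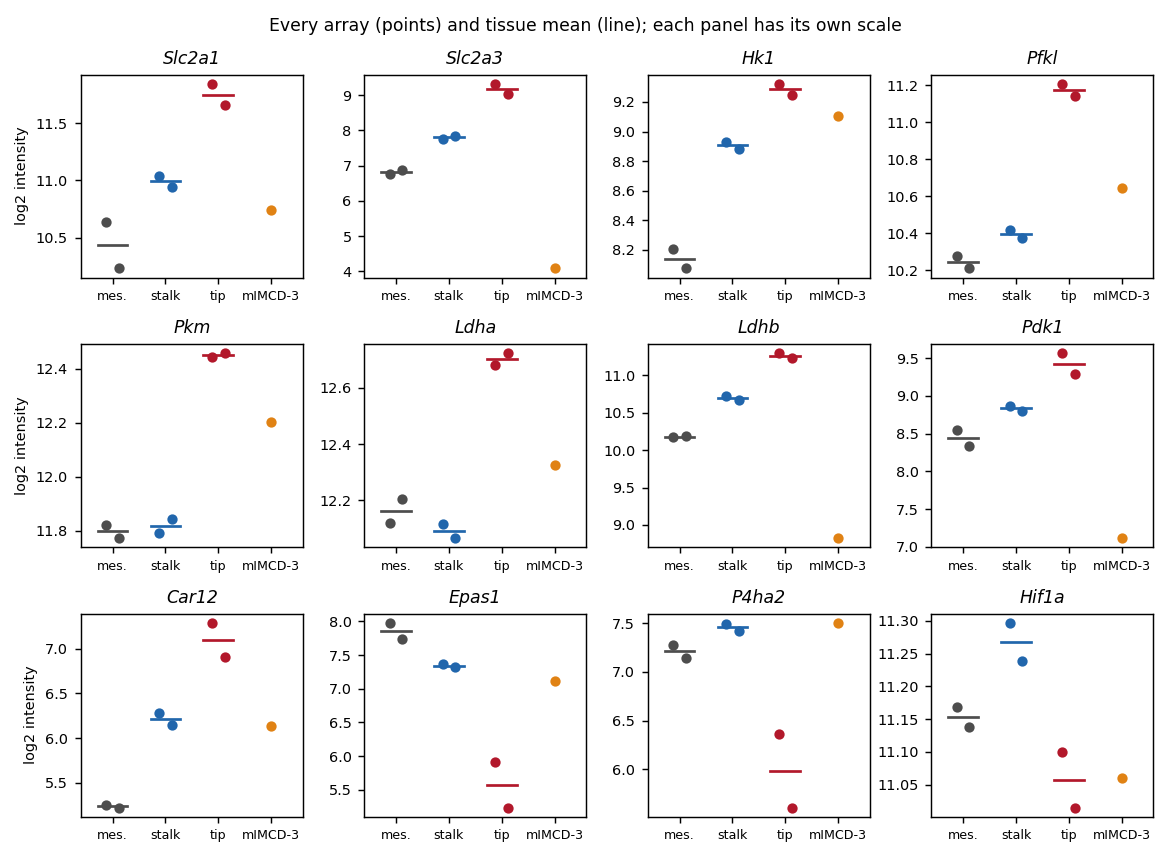
Log2 intensity of 12 members on every array, with points for arrays, a line at the mean of the 2 arrays of a tissue and 1 point for mIMCD-3; each panel has its own scale that does not start at 0. Slc2a1, Slc2a3, Hk1, Ldhb, Pdk1 and Car12 step up from mesenchyme over stalk to tip, Pkm and Ldha are highest in tip, and Epas1 and P4ha2 are lowest in tip.

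The other hypoxia response genes split. Of 10 measured, 4 were higher and 1 lower in tip than in mesenchyme, and 2 were higher and 1 lower in tip than in stalk. Car12, a membrane carbonic anhydrase gene, was at 5.25 and 5.22 in mesenchyme, 6.27 and 6.15 in stalk and 7.29 and 6.91 in tip. Tip values exceeded mesenchyme by 1.87 ± 0.16 (adjusted p = 0.000128, held in all 6 fits without 1 array), and stalk by 0.89 ± 0.16 (adjusted p = 0.0105, and 0.0851 without stalk replicate 2). Stalk exceeded mesenchyme by 0.98 ± 0.16 in Car12 (adjusted p = 0.0107), which was lost without mesenchyme replicate 1 (adjusted p = 0.0503), mesenchyme replicate 2 (0.0597) or stalk replicate 1 (0.0926). As for Eno2, the mesenchyme values of Car12 lay below the array medians. Its relative Car9, a classical HIF-1 target, was low everywhere, from 4.93 to 5.56, below the median of the tissue arrays, and was not called. Bnip3, a mitophagy gene, was at 9.93 and 9.72 in mesenchyme, 10.33 and 10.34 in stalk and 10.67 and 10.52 in tip. Tip values exceeded mesenchyme by 0.77 ± 0.14 (adjusted p = 0.00644, and 0.0550 without mesenchyme replicate 2). The stalk difference of Bnip3, 0.51 ± 0.14, was called with the block (adjusted p = 0.0199) and not without it (0.0924).

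Ankrd37, a small ankyrin repeat gene known as a HIF target, was at 7.02 and 7.15 in mesenchyme, 6.88 and 7.08 in stalk and 7.93 and 7.54 in tip. Mesenchyme and stalk overlapped. The tip exceeded mesenchyme by 0.65 ± 0.17 (adjusted p = 0.0360) and stalk by 0.75 ± 0.17 (adjusted p = 0.0286). The first call was kept only without tip replicate 2 (adjusted p from 0.0575 to 0.176 in the other 5 fits), and the second was lost without stalk replicate 1 (0.229), stalk replicate 2 (0.0813) or tip replicate 1 (0.0588). Ddit4, an inhibitor of mTORC1 signalling induced by several stresses, was at 9.62 and 9.57 in mesenchyme, 10.33 and 10.28 in stalk and 10.20 and 9.97 in tip. Here the stalk was highest, 0.71 ± 0.13 above mesenchyme (adjusted p = 0.0209), and the tip was 0.49 ± 0.13 above it (adjusted p = 0.0441). The stalk call was lost without either mesenchyme or either stalk array (adjusted p from 0.0973 to 0.214). The tip call was kept without tip replicate 2, lost without the other 5 (0.0904 to 0.204), and lost after centring the arrays (0.0869).

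P4ha2 and P4ha1 encode catalytic subunits of the prolyl hydroxylase that matures collagen. P4ha2 was at 7.28 and 7.15 in mesenchyme, 7.49 and 7.43 in stalk and 6.37 and 5.61 in tip. It fell by 1.23 from mesenchyme to tip (SE 0.23, 2.34-fold, adjusted p = 0.00915) and by 1.47 from stalk to tip (SE 0.23, adjusted p = 0.00625), and both calls held in all 6 fits without 1 array. P4ha1 ranged from 7.45 to 8.18 and was not called, except without tip replicate 1 as lower in tip than in mesenchyme (-0.60, adjusted p = 0.0488). Ndrg1, a stress-responsive gene, was at 6.81 and 6.63 in mesenchyme, 6.95 and 6.91 in stalk and 5.98 and 6.50 in tip. Tip values were lowest but was not called, with differences of -0.48 ± 0.19 from mesenchyme (adjusted p = 0.148) and -0.69 ± 0.19 from stalk (adjusted p = 0.0611). The latter was called with the block (adjusted p = 0.0199). With the mean of its probe sets both were (-0.62, adjusted p = 0.00932, and -0.68, adjusted p = 0.00962), and both were without tip replicate 2 (-0.74, adjusted p = 0.0167, and -0.95, adjusted p = 0.0114). Vegfa, the angiogenic ligand gene and a textbook HIF target, was at 8.38 and 8.40 in mesenchyme, 8.50 and 8.55 in stalk and 8.21 and 8.32 in tip. Its largest difference, -0.26 ± 0.12 for tip against stalk, was not called (adjusted p = 0.270). Adm, the adrenomedullin gene, ranged from 5.68 to 6.15 and was not called.

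In dissected tissue, fewer cells of a type and less RNA per cell cannot be told apart, and cells other than epithelium moved with these comparisons. Of 15 endothelium markers, 12 were lower in tip than in mesenchyme and 12 lower than in stalk, with medians of -1.92 and -1.21. Their summed linear intensity was 4944 and 4573 in mesenchyme, 3151 and 3143 in stalk and 1602 and 1528 in tip. All 8 renal stroma markers were lower in tip than in mesenchyme and than in stalk (medians -3.47 and -3.51), with sums of 13149 and 12364 in mesenchyme, 13697 and 12932 in stalk and 1535 and 1156 in tip. The erythroid sum was 24381 and 23989 in mesenchyme, 18278 and 17984 in stalk and 9790 and 10084 in tip. Cdh5, which defines endothelium, was at 7.30 and 7.19 in mesenchyme and 5.29 and 5.19 in tip. Of 8 nephron progenitor markers 7 were lower in tip than in mesenchyme, and of 10 myeloid markers 7. In mIMCD-3 the endothelium sum was 696 and the stroma sum 935. Epithelial markers moved as well, and stalk and tip were not alike in them. The summed intensity of 9 bud epithelium markers was 536 and 493 in mesenchyme, 18816 and 18634 in stalk and 33562 and 30987 in tip. Of these 9, 4 were higher in tip than in stalk and 0 lower. The part of all these cells, epithelium included, in the lower Epas1 and P4ha2 and in the higher glycolytic genes of the tip was not tested.

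Members with several probe sets mostly gave the same direction. Of 21 such members, the probe sets differed in sign for 2 in tip against mesenchyme, 3 in tip against stalk and 6 in stalk against mesenchyme, and none of the 21 was called both ways. When every probe set was fitted on its own, 32 of 75 were higher and 3 lower in tip than in mesenchyme, where 5.96% of all probe sets were higher and 6.95% lower. All 4 probe sets of Slc2a3 were higher (1.47 to 2.50), as were all 3 of Slc2a1 (1.32 to 1.51), all 4 of Ldhb (1.06 to 1.16), all 3 of Tpi1 (0.54 to 0.64) and both of Hk1 (1.15 and 1.65). For Pdk1, 3 of 4 were higher. For Aldoa, 2 of 5 were called. The call rested on 1 probe set for Aldoc, Egln3, Slc16a1, Epas1 and Car12. Their probe sets that were not called gave 0.06 (Aldoc), 0.24 (Egln3), 0.32 (Slc16a1), -0.28 (Epas1) and 0.05 and 0.40 (Car12). For Ndrg1 all 5 were lower in tip, from -1.23 to -0.33, and 1 was called.

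**Figure D4:**
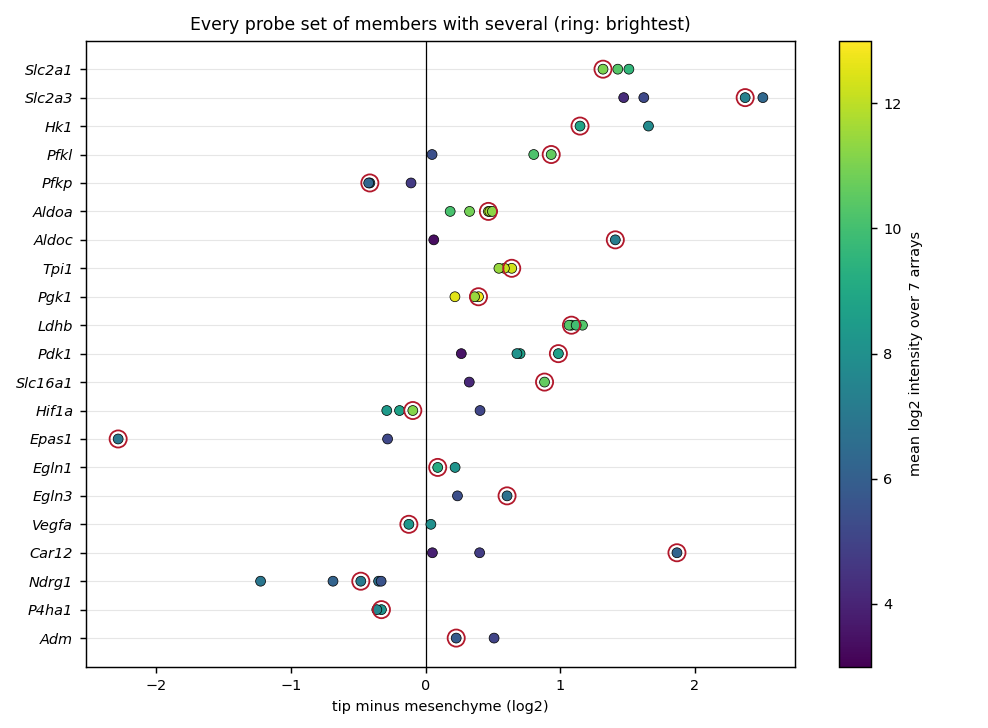
Difference between tip and mesenchyme in log2 units for every probe set of the 21 members that have more than 1, coloured by mean log2 intensity over the 7 arrays, with a ring around the brightest one, which stands for the gene elsewhere. The points of Slc2a1, Slc2a3, Ldhb and Tpi1 lie together right of 0, while Epas1, Aldoc and Car12 combine 1 far point with dim probe sets near 0.

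Promoter windows of the members were read for the core letters of a hypoxia response element, because 18 members were higher in tip than in mesenchyme. RefSeq promoters of assembly GRCm38.p6, 250 bases before to 50 bases after each start site, were available for 33 of the 36 listed genes in 46 windows. The motifs ACGTG and GCGTG were searched on both strands, and a CACGTG, an E-box that other factors also bind, counts as an ACGTG match on each strand. ACGTG occurred in 25 of 46 windows (54.3%) and in 23 of 33 genes, and in 19.6% of all 32851 windows. GCGTG occurred in 26 of 46 (56.5%) against 32.4% of all windows, and either motif in 36 of 46 (78.3%) and 29 of 33 genes against 43.8% of all windows. Citric acid cycle genes, of which 0 were called between tissues without the replicate block, had ACGTG in 9 of 19 windows (47.4%), and oxidative phosphorylation genes in 3 of 14 (21.4%). The members' windows were richer in GC than all windows (median 62.8% against 52.7%) and in CpG (20.5 against 7 per window), and both motifs contain a CpG. The members were listed as genes of glycolysis or of the response to hypoxia. A motif share above that of all windows can follow from this choice. A match is a run of letters and not a bound site. The following windows are shown because 4 of the 5 genes were called higher in tip than in mesenchyme and Pgk1 higher in tip than in stalk, with ACGTG in some and neither motif in Tpi1. They run 5′ to 3′ on the gene's strand with the ACGTG matches in capitals.
Slc2a1, chr4:119108495-119108794, plus strand: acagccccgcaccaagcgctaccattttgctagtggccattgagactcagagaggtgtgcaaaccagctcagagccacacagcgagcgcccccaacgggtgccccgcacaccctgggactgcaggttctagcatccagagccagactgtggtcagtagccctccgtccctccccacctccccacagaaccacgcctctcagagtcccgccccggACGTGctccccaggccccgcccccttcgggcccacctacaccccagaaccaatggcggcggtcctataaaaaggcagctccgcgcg
Pgk1, chrX:106186850-106187149, plus strand: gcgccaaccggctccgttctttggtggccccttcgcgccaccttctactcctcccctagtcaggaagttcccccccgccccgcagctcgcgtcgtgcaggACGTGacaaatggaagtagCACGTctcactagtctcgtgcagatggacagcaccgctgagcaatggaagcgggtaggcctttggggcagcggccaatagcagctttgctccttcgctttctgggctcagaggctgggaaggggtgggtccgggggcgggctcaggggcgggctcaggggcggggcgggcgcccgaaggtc
Ldha, chr7:46845554-46845853, plus strand: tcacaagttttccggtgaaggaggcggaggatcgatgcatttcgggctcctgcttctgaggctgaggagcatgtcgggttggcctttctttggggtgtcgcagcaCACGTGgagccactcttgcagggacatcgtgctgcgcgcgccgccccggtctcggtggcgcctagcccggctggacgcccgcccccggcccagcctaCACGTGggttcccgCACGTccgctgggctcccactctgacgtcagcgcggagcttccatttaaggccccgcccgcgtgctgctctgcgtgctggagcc
Bnip3, chr7:138909457-138909756, minus strand: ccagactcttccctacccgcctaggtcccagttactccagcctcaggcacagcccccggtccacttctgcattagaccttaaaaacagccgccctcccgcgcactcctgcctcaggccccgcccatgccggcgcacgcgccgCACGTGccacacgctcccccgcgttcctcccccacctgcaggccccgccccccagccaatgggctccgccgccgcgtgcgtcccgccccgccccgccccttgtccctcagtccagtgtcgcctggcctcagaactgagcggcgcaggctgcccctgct
Tpi1, chr6:124814109-124814408, minus strand: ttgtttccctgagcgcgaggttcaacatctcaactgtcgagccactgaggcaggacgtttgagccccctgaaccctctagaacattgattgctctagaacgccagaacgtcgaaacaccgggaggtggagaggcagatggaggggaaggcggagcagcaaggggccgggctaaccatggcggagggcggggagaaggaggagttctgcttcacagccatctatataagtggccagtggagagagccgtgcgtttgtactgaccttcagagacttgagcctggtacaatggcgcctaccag
In Slc2a1 the match began 36 bases before the start site. Pgk1 had matches at 150 and 131 bases before it. Ldha had CACGTG starting 145 and 48 bases before the start site and a further match at 34. Bnip3 had a CACGTG starting 108 bases before it. Tpi1 had no ACGTG in this window, nor had Pfkl, Ldhb, Pdk1, Car12 and Eno2, which were also called higher in tip than in mesenchyme. ACGTG was found in a window of P4ha2, called lower there, and of Vegfa, Car9, Hif1a, Egln1, P4ha1 and Pfkm, which were not called. Hk2, Pgk1, Pgam1, Pdk3 and Slc16a3, also not called there, had it too, and Adm and Pfkp did not. Whether ACGTG went with the tip calls was not tested. GCGTG was found in windows of Pfkl, Ldhb and Pdk1 and not in those of Tpi1, Car12 and Eno2. Epas1, Ndrg1 and Slc2a3 had no window in the table.

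Other genes of the same pathways, listed alongside the members, were counted in the same fit. Of 22 further glycolysis and pyruvate genes, 2 were higher and 4 lower in tip than in mesenchyme (4 and 5 with the replicate block), with a median of 0.17. The hexokinase-domain gene Hkdc1 was 1.40 ± 0.21 higher in tip (adjusted p = 0.00254) and 1.29 ± 0.21 higher in stalk than in mesenchyme (adjusted p = 0.0104). Pfkfb3, whose enzyme makes the activator of phosphofructokinase, was 1.01 ± 0.24 higher in tip (adjusted p = 0.0256). The insulin-regulated transporter gene Slc2a4 was lower in tip (-0.90 ± 0.14, adjusted p = 0.00408), as was Eno3, an enolase gene of muscle (-0.77 ± 0.14, adjusted p = 0.00639). Against stalk 0 of the 22 were higher in tip and 2 lower, with 5 and 5 at an unadjusted p under 0.05 and 4 and 5 with the block, and the lower ones were the mitochondrial pyruvate carrier gene Mpc1 (-0.64 ± 0.15, adjusted p = 0.0365) and the transporter gene Slc2a12 (-0.68 ± 0.15, adjusted p = 0.0259).

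Among 30 further hypoxia response genes, 6 were higher and 5 lower in tip than in mesenchyme (9 and 6 with the block), with a median of 0.05. Ak4, an adenylate kinase gene, was 1.80 ± 0.14 higher (adjusted p = 7.81e-05) and the glycogen phosphorylase gene Pygl 1.66 ± 0.18 higher (adjusted p = 0.000482). The collagen cross-linking gene Lox was lower (-2.08 ± 0.19, adjusted p = 0.000178), as was Tmem45a (-2.10 ± 0.23, adjusted p = 0.000481). Against stalk, 2 were higher in tip and 5 lower (6 and 7 with the block). Tmem45a was lower (-2.55 ± 0.23, adjusted p = 0.000375), as was Lox (-2.29 ± 0.19, adjusted p = 0.000246). The chemokine receptor gene Cxcr4 was 1.94 ± 0.17 higher (adjusted p = 0.000342) and Angptl4 lower (-1.70 ± 0.14, adjusted p = 0.000272). In stalk against mesenchyme 1 was higher and 1 lower (4 and 2 with the block), namely Pygl (1.20 ± 0.18, adjusted p = 0.00729) and Cxcr4 (-0.91 ± 0.17, adjusted p = 0.0195). Of 15 further HIF pathway regulators, among them Arnt, Vhl and Hif1an, 1 was called in tip against mesenchyme, the Arnt relative Arnt2 (0.58 ± 0.13, adjusted p = 0.0198), and 0 in the other comparisons, where 1 was lower (stalk against mesenchyme) and 1 higher and 1 lower (tip against stalk) at an unadjusted p under 0.05. With the block 1 was lower in stalk against mesenchyme and 1 higher and 1 lower in each of the other comparisons. Of 6 gluconeogenesis genes, the pyruvate carboxylase gene Pcx was lower in tip than in mesenchyme (-0.61 ± 0.12, adjusted p = 0.0129, limma). With the block 2 of the 6 were lower in that comparison and 1 in tip against stalk.

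Genes of mitochondrial respiration differed little between tissues. Of 16 citric acid cycle genes 0 passed in the limma fit, with 2 higher and 1 lower in tip against mesenchyme at an unadjusted p under 0.05, and with 2 higher and 1 lower passing with the replicate block. In tip against stalk 1 was higher and 1 lower at that unadjusted p and with the block. Their differences for tip against mesenchyme ranged from -0.44 to 0.37, with a median of 0.01. Of 19 oxidative phosphorylation genes 0 passed in any of the 3 comparisons, with or without the block, and 0 had an unadjusted p under 0.05. Their differences ranged from -0.14 to 0.22 for tip against mesenchyme, while those of the 14 glucose uptake and glycolytic members ranged from -0.41 to 2.37.

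The line mIMCD-3 differed from the tissues by the largest amounts in Ndrg1, which was higher, and Slc2a3, which was lower. With 1 array there is no replicate check, so a member was counted when mIMCD-3 lay outside all 6 tissue arrays and at least 1 log2 unit from the mean of the 3 tissue means. By this rule 5 of 34 members were higher (10.0% of all genes) and 5 lower (9.08% of all genes), shares close to those over all genes. In all, 12 members lay above the tissue range, 7 below and 15 within it. The matching shares over all genes are not given here, so these counts are not read as a result about the members. Those above it by less than the rule asks were Hk2, Aldoa, Tpi1, Pgam1, Egln1, Bnip3 and P4ha2, and those below it Vegfa and Car9. The members within it included Slc2a1, Hk1, Pfkl, Pgk1, Pkm, Ldha and Hif1a.

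Ndrg1 was at 9.93 in mIMCD-3 and between 5.98 and 6.95 in the tissues, 3.30 above the tissue mean (9.82-fold), and its 5 probe sets gave 2.17 to 4.17. Egln3 was at 8.83 against 6.01 to 6.84, a difference of 2.38, with 2.21 for its other probe set. Pfkp, the subunit gene called lower in tip than in stalk, was at 8.82 against 5.95 to 6.91 (2.33), and its 3 probe sets gave 1.13 to 2.33. All probe sets of these 3 genes lay above every tissue array. Aldoc was at 8.87 against 6.11 to 7.72 (1.98), whereas its other probe set, dim at 3.85 in mIMCD-3, gave 0.58. P4ha1 was at 9.33 against 7.45 to 8.18 (1.41), whereas its other probe set gave 0.40. Bnip3, at 11.21 and 0.96 above the tissue mean, fell just short of the rule.

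Slc2a3 was at 4.08 in mIMCD-3, near the lower quartile of that array (3.99), and between 6.76 and 9.33 in the tissues. The difference of -3.86 is thus of uncertain size, and the dimmer probe sets gave -3.38, -1.24 and -0.69. Slc16a3, measured by 1 probe set, was at 4.37 against 6.27 to 6.89 (-2.11). Its mIMCD-3 value lay below the median of that array (5.40), so the size of this difference is uncertain too. Ddit4 was at 7.97 against 9.57 to 10.33 (-2.02). Ldhb was at 8.83 against 10.17 to 11.29 (-1.89), with all 4 probe sets between -2.07 and -1.63. Pdk1 was at 7.12 against 8.33 to 9.56 (-1.79), but its probe sets disagreed, from -1.79 to 0.21. Vegfa, at 7.42 against 8.21 to 8.55, lay 0.97 below the tissue mean and just outside the rule, and its second probe set gave -0.85. Slc2a3 and Ldhb, which stepped up towards the tip, were thus lowest in the line, while Aldoc and Egln3, which did so too, were highest in it. Pdk1 also stepped up and was lowest in the line by its brightest probe set. Another Pdk1 probe set was at 8.33 in mIMCD-3, inside its tissue range of 7.79 to 8.57.

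**Figure D5:**
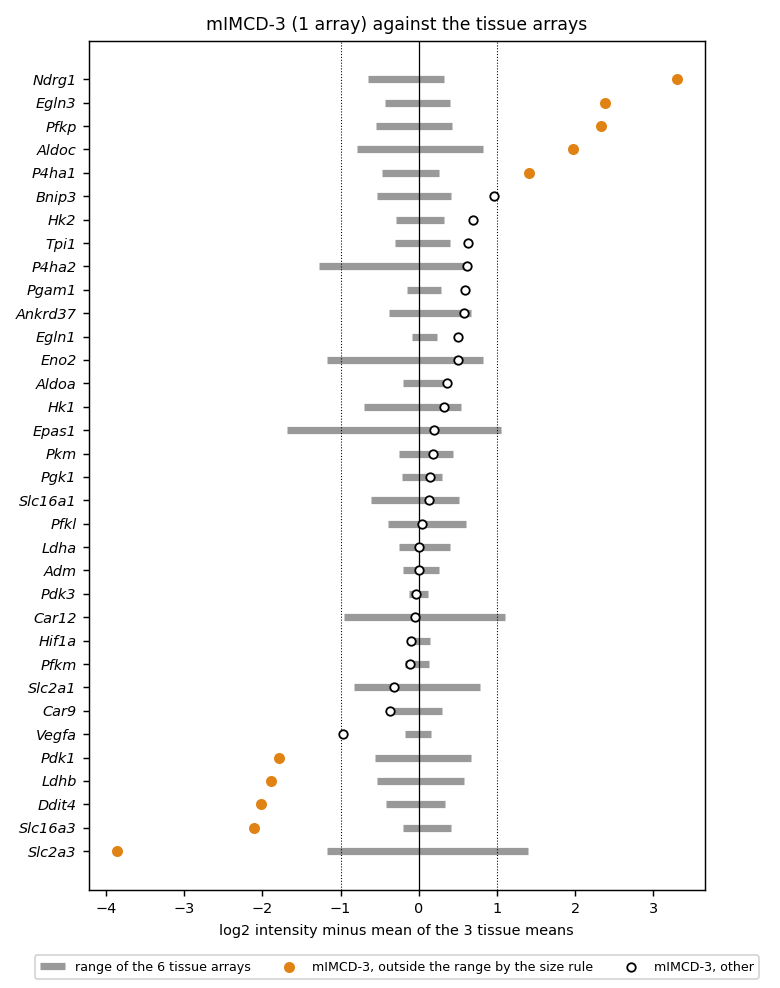
Log2 intensity of each member in mIMCD-3 (points, 1 array) and the range of the 6 tissue arrays (grey bars), both as the difference from the mean of the 3 tissue means; dotted lines mark a difference of 1. Ndrg1, Egln3, Pfkp, Aldoc and P4ha1 lie to the right of their bars and Pdk1, Ldhb, Ddit4, Slc16a3 and Slc2a3 to the left.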

How the data were processed

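The authors deposited one intensity per probe set and array on a linear scale, made by robust multichip analysis (RMA) over all 7 arrays together, per the labels and the submitters' processing notes. RMA equalises the distribution of signals between arrays, gives no detection call and compresses differences of dim genes. Its software and version are not given in the sources used here. Here the values were converted to log2. Of 45101 probe sets, 64 were controls, 932 listed several genes and 9160 none, and these were not used. The brightest probe set, by its mean on the 7 arrays, represented each of 18193 genes, and no gene was filtered out. Symbols come from the platform annotation.

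The 6 tissue arrays were fitted with limma 3.58.1 in R 4.3.3, with a coefficient per tissue and 3 residual degrees of freedom, two-sided, with Benjamini-Hochberg adjustment over all genes and a threshold of 0.05. All adjusted p-values come from this fit or from the alternatives named with them. mIMCD-3 was not fitted. The labels call the arrays of a tissue biological replicates, and no pair of arrays held identical values. Differences between the 2 replicates, taken over probe sets, had correlations of 0.39 (mesenchyme with stalk), 0.57 (mesenchyme with tip) and 0.43 (stalk with tip), all above 0.1, so the replicate number was treated as a pairing and fitted as a block in an alternative (2 residual degrees of freedom). The pairing comes from the data, since the labels give only the number.

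Alternatives were the block, the mean of a gene's probe sets, every probe set fitted, no dim genes (lowest 40%), centred arrays, trend and robust variance, only the 2 groups compared, each array left out in turn, and, chosen after seeing the data, no _x_at or _s_at probe sets. The fit was tested on simulated data. The members and gene lists were chosen with earlier results of these data known. Every member is reported, with every array value for members called in a tissue comparison or outside the tissues in mIMCD-3 by the size rule; from the other lists up to 4 called genes with the largest differences were named. Promoter windows are RefSeq's (GRCm38.p6). Figures were drawn with matplotlib 3.10.9.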

Additional observations from a re-analysis of the deposited data

Results flagged for a closer look

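For 5 members every stalk array lay on one side of both mesenchyme arrays and every tip array on the other, and the difference between tip and stalk was itself called, a combination seen in 2.78% of all genes. Pfkp (tip minus stalk -0.81 ± 0.14, SE) and P4ha2 (-1.47 ± 0.23) were above mesenchyme in stalk and below it in tip. Ldha (0.61 ± 0.12), Hk2 (0.53 ± 0.13) and Pgk1 (0.50 ± 0.12) were below mesenchyme in stalk and above it in tip. In limma the adjusted p for tip against stalk was 0.00999 for Pfkp, 0.00625 for P4ha2, 0.0177 for Ldha, 0.0447 for Hk2 and 0.0391 for Pgk1. None of the 5 was called in stalk against mesenchyme, so the stalk side of each rests on arrays that do not overlap. For Ldha, replicate 1 of stalk and replicate 1 of mesenchyme were both at 12.12. In tip against mesenchyme Ldha and P4ha2 were called, and Pfkp, Hk2 and Pgk1 were not (adjusted p = 0.101, 0.268 and 0.0708), so their tip side rests on arrays that do not overlap too. The call of Hk2 in tip against stalk was lost in all 6 fits without 1 array (adjusted p up to 0.320), and that of Pgk1 in 5 of the 6 (up to 0.358). No tissue had the 4 arrays needed to look for outlying samples.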

How the results depend on the processing

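No called difference of a member changed sign under any alternative. Over the fits that left out 1 tissue array, the members higher in tip numbered 11 to 18 against mesenchyme and 1 to 9 against stalk, and those lower 2 to 4 in each comparison. Those higher in stalk than in mesenchyme numbered 2 to 8. An array left out leaves its tissue with a single array, assumed to vary like the others. The share of all genes called also rose and fell between these fits. The ranges of counts are therefore not read as a change particular to the members. With the replicate number as a block, the counts were 20 higher and 3 lower (tip against mesenchyme), 16 and 4 (tip against stalk) and 10 and 0 (stalk against mesenchyme). Over all genes the block gave 11.2% higher and 12.8% lower, 8.92% and 11.7%, and 6.77% and 3.17%. Every call of the fit without the block was kept. Requiring at least 2 log2 units left 3 members higher and 3 lower in mIMCD-3, where 2.47% of all genes were higher and 4.01% lower. Calls kept in all 6 fits without 1 array were 12 of 20 for tip against mesenchyme, 3 of 15 for tip against stalk and 1 of 7 for stalk against mesenchyme. With 2 arrays per tissue, small differences sit near the threshold, and a missed threshold does not show equal levels.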
